A study of Homo sapiens with 6 samples.

Results

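Histone-modifying enzymes were taken as every gene of the deposited count table whose symbol belongs to the KDM, SETD, MLL, EHMT, EZH, SUV, PRMT, HDAC, SIRT or KAT series, which gave 76 of 23368 genes. Membership was set by symbol alone, but the set was put together with results of the same comparison in view, so its counts and medians are descriptions. It held 25 lysine methyltransferases of the SET-domain and MLL type, 17 lysine demethylases (KDM), 8 protein arginine methyltransferases (PRMT), 11 histone deacetylases (HDAC), 7 sirtuins (SIRT), 7 lysine acetyltransferases (KAT) and the antisense locus KDM5B-AS1, which encodes no enzyme. Classes, and the groups by histone mark within them, were also assigned by symbol, and the activity of each product was not examined. Both groups were H2122 cells, a human lung adenocarcinoma line, collected 48 hours after transfection: 3 libraries received a control shRNA (short hairpin RNA) and 3 an shRNA against LYCAT, now called LCLAT1, an acyltransferase of the endoplasmic reticulum that remodels phospholipids. The labels name 1 cell line and give no hairpin sequence. Separate cultures are not mentioned in them, and the p-values therefore describe only the spread among these 6 libraries, part of which may be technical.

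Histone tails carry acetyl and methyl groups that are placed by writers (acetyltransferases and methyltransferases) and removed by erasers (deacetylases, sirtuins and demethylases). Methylation of H3K4 is typical of active promoters and enhancers, that of H3K36 of transcribed gene bodies, and that of H3K9, H3K27 and H4K20 mostly of repressed or compacted chromatin. Many of the enzymes also act on proteins other than histones, such as p53 and tubulin, and many are altered in lung cancer and other tumours.

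The libraries held 3118946 to 4930079 counts, and 11097 genes were abundant enough to test. Levels are given as CPM, each count divided by the library total and multiplied up to a common size after scaling between libraries by the TMM method. Replicates 1 to 3 of the target LCLAT1 stood at 56.6, 61.0 and 65.1 CPM with control shRNA and at 18.9, 22.5 and 23.5 CPM with LYCAT shRNA, so the groups did not overlap (log2 fold change -1.50, SE 0.114, edgeR adjusted p = 1.15e-18; exact two-sided permutation p = 0.1, the smallest that 3 against 3 libraries allow). The epithelial markers EPCAM, KRT18 and CLDN4 had at least 1144 counts in each library. All 10 epithelial markers listed had counts, but MUC1 had only 6 to 11 in a library and CEACAM6 only 1 to 5. Summed, these markers were at 1996 to 2067 CPM in controls and at 1805 to 1850 CPM with LYCAT shRNA, and 4 of the 8 tested (KRT7, KRT8, KRT18 and CDH1) fell. ELF3 was higher with LYCAT shRNA without overlap but did not pass (log2 0.63, edgeR adjusted p = 0.113). Fibroblast markers differed between control libraries. Their 7 genes summed to 89.8, 130.2 and 31.2 CPM in control replicates 1 to 3. With LYCAT shRNA they summed to 37.6, 19.3 and 31.2 CPM. Most of it was collagen RNA. Control replicates 1 to 3 had 22, 10 and 2 counts of THY1 and 5, 19 and 1 of LUM. LYCAT replicates 1 to 3 had 3, 2 and 1 of THY1 and 7, 1 and 7 of LUM. DCN had at most 1 count and PDGFRB at most 3 in any library. Of the 3 fibroblast markers tested, edgeR called 0, while DESeq2 and limma-voom called 1 and 2 lower. PECAM1 and CDH5 of endothelium and PTPRC and CD3E of blood were at 0 in all 6 libraries. Results for the enzymes are therefore also given without control replicates 1 and 2, and the part that other cells played in them was not tested. In bulk RNA, fewer cells that express a gene and less RNA per cell cannot be told apart.

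Of the 76 genes, 69 were tested. At an edgeR quasi-likelihood adjusted p under 0.05, 2 of them rose with LYCAT shRNA and 8 fell (14.5% of the 69), against 19.1% of all tested genes called in either direction, 9.81% higher and 9.26% lower. Of the enzymes 11.6% were called lower and 2.9% higher. A difference between these shares and those of all genes was not tested and is not read from the counts. The 8 that fell were EHMT1, SETD2, SETD8, SETD5 and MLL of the methyltransferase class and the deacetylase genes HDAC6, HDAC10 and HDAC4. The 2 that rose were PRMT6 and KDM4B. Complete separation of the 2 groups was seen for 21 of 69 genes (30.4%, 17 lower and 4 higher with LYCAT shRNA), beside 32.8% of all tested genes. Changes were small: the median of the 69 was -0.12 on the log2 scale, beside -0.006 for all tested genes, and 51 of 69 (73.9%) lay below 0, beside 51% of all tested genes. The RNA summed over the 76 genes came to 3793, 3810.1 and 3787 CPM with control shRNA and to 3562, 3577 and 3508 CPM with LYCAT shRNA. Each LYCAT library was below each control, and the mean was 93.5% of the control mean. This sum is a description too, since the set was put together with results in view. Without control replicates 1 and 2, when 9.94% of all genes were called, 1 enzyme (EHMT1) was called lower and 0 higher by edgeR, while the median was -0.11 and 52 of 70 lay below 0; the lone control is there assumed to vary like the other group. With DESeq2 5 fell and 1 rose, and with single libraries left out 4 to 9 fell and 1 or 2 rose: 4 fell without LYCAT replicate 1, 5 without LYCAT replicate 3, and 1 rose without control replicate 2 or 3 or LYCAT replicate 1 or 2.

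**Figure D1:**
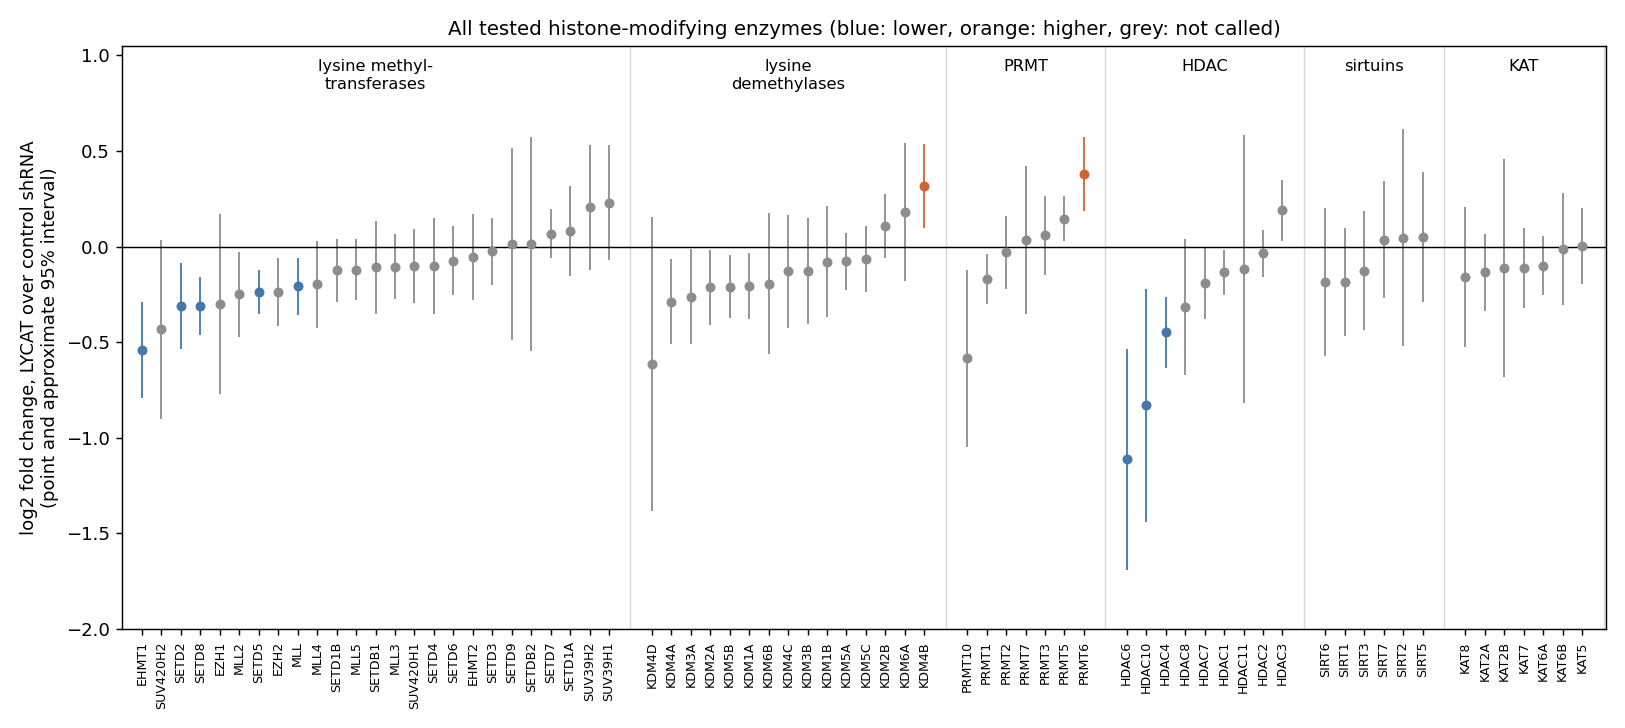
Log2 fold change (LYCAT over control shRNA, vertical axis) of the 69 tested enzymes, grouped by class and ordered within each, with points for the edgeR estimate and lines for its approximate 95% interval. Blue points mark the 8 genes called lower, orange points the 2 called higher and grey points those not called; 51 of the 69 points lie below 0.

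The promoters of 4 called genes are shown, 2 that fell (EHMT1 and SETD5) and 2 that rose (PRMT6 and KDM4B), taken from the called genes with a single annotated start in the RefSeq table (GRCh38.p14), so that genes moving in opposite directions can be set beside each other. Each is the 250 bases before the start, 5′ to 3′ on the gene's strand, with capitals for the GC box GGGCGG, which Sp1-type factors bind, and the CCAAT box CCAAT, which NF-Y binds, on either strand.
EHMT1 (chr9:137618755-137619004, plus strand): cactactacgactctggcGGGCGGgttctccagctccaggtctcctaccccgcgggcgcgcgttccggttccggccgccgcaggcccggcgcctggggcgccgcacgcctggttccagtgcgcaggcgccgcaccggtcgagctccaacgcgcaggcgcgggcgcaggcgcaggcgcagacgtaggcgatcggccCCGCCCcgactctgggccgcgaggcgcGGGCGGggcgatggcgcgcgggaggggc
SETD5 (chr3:9397365-9397614, plus strand): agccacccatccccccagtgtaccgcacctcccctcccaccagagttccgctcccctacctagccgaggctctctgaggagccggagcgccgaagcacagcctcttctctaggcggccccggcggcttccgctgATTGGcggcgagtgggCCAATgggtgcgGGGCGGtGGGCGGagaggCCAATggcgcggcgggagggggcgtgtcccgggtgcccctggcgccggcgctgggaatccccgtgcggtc
PRMT6 (chr1:107056424-107056673, plus strand): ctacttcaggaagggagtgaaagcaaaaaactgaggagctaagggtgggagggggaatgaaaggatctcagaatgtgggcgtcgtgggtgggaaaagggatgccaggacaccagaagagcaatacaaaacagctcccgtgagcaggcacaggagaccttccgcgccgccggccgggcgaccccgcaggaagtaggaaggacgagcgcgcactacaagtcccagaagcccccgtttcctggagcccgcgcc
KDM4B (chr19:4968863-4969112, plus strand): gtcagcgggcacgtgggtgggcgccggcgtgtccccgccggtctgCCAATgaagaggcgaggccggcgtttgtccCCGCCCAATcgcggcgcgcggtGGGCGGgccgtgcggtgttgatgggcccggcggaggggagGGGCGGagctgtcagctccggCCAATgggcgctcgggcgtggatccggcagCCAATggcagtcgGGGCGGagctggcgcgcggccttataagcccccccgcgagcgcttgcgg

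The windows of EHMT1, SETD5 and KDM4B were rich in G and C (78.8%, 73.2% and 75.6%), beside a median of 58% over 35116 windows. That of PRMT6, at 60.4%, lay near this median. EHMT1, SETD5, PRMT6 and KDM4B had 43, 25, 16 and 36 CpG pairs. EHMT1 held 3 GC boxes and 0 CCAAT boxes, SETD5 2 GC boxes and 3 CCAAT boxes, and KDM4B 4 of each, with 1 GC box and 1 CCAAT box overlapping. PRMT6 held neither. Among the 10 called genes a GC box was found in 9, PRMT6 being the exception, and a CCAAT box in 5 (HDAC6, HDAC10, KDM4B, SETD5 and SETD8), counting any of their 17 annotated starts. Counted by window, 12 of the 17 held a GC box, beside 42.6% of all RefSeq windows, and 6 of the 17 a CCAAT box, beside 32%. The TATA box TATAAA was in 0 of the 17 windows and in 10.7% of all windows, and the cAMP response element TGACGTCA in 0 and 1.65%. The E-box CACGTG, in 6.34% of all windows, was in those of HDAC4 and KDM4B, and the cell cycle element TTTGAA, in 13.3%, in 2 windows of HDAC4. These matches are letters in a window and say nothing on whether a factor binds there.

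Among lysine methyltransferases 5 of 25 fell and 0 rose, with a median of -0.11. That is 20% of the class, near the 19.1% called among all tested genes. With edgeR 0 members of the class were higher also at an unadjusted p under 0.05, and DESeq2 and limma-voom called 0 higher, 3 and 5 lower. EHMT1 (GLP), which forms a dimer with EHMT2 (G9a) that puts mono- and dimethyl marks on H3K9, was at 42.1, 30.9 and 37.8 CPM in control replicates 1 to 3 and at 29.5, 22.9 and 22.8 CPM in LYCAT replicates 1 to 3. The groups did not overlap, but control replicate 2 and LYCAT replicate 1 lay close together. The group mean was 37.0 ± 5.64 CPM in controls and 25.1 ± 3.84 CPM with LYCAT shRNA (SD, n = 3 each), a fall of 1.45-fold with a log2 change of -0.54 (SE 0.126, edgeR adjusted p = 0.000855). EHMT1 was called in every setting tried, control replicates 1 and 2 left out included (log2 -0.58, adjusted p = 0.0231). Its partner EHMT2 did not pass and had a log2 value of -0.05 (approximate 95% interval -0.28 to 0.17); the difference between the 2 partners was not tested.

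The other H3K9 methyltransferases did not pass. SUV39H1 and SUV39H2, which put the trimethyl mark of constitutive heterochromatin, had positive log2 values of 0.23 and 0.21, and SETDB1 and SETDB2 had -0.11 and 0.01. SUV39H1 stood at 17.5, 16.6 and 18.4 CPM in controls and at 22.7, 19.3 and 19.1 CPM with LYCAT shRNA, without overlap, with an edgeR adjusted p of 0.315.

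SETD8, which encodes the monomethylase of H4K20 and is now named KMT5A, had 110.5, 109.8 and 109.3 CPM in controls and 98.7, 79.5 and 85.8 CPM with LYCAT shRNA. The controls were almost equal and every LYCAT library was lower, with more spread among them. Means were 109.9 ± 0.583 and 88 ± 9.77 CPM, a fall of 1.24-fold (log2 -0.31, SE 0.0763, edgeR adjusted p = 0.00163). SETD8 passed with any single library left out but not without control replicates 1 and 2 (log2 -0.30, adjusted p = 0.0586). The span of SETD8 overlaps that of RILPL2 in RefSeq, and RILPL2 had 442 counts over the 6 libraries where SETD8 had 2585. SUV420H1 and SUV420H2, which add further methyl groups to H4K20, had log2 values of -0.10 and -0.43 and did not pass, although the 2 groups did not overlap for SUV420H2 (8.98, 9.5 and 8.11 CPM against 6.58, 5.15 and 7.69 CPM, adjusted p = 0.202). The 3 H4K20 genes summed to 174, 189.4 and 175 CPM in controls and to 166.8, 137.1 and 148.7 CPM with LYCAT shRNA.

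SETD5, a SET-domain protein of chromatin complexes that carry HDAC3, was the methyltransferase-type gene with the most counts, at 270.1, 289.5 and 271 CPM in controls and 241.5, 248.5 and 216.5 CPM with LYCAT shRNA. All 3 LYCAT libraries were below all controls. Means were 277 ± 10.9 and 235 ± 16.8 CPM, a fall of 1.18-fold (log2 -0.24, SE 0.0568, edgeR adjusted p = 0.00111). It missed the threshold without LYCAT replicate 3 (log2 -0.18, adjusted p = 0.0513) and without control replicates 1 and 2 (-0.21, adjusted p = 0.0579). Of the other SETD genes outside the named marks, SETD7, a monomethylase of H3K4 and of proteins such as p53, stood at 145.8, 134.4 and 148.4 CPM in controls and 152.3, 148.4 and 147.5 CPM with LYCAT shRNA (log2 0.07, approximate 95% interval -0.06 to 0.20, edgeR adjusted p = 0.532), so the groups overlapped.

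SETD2, the enzyme for H3K36 trimethylation, was at 43.2, 40.6 and 45.7 CPM in controls and 36.7, 39.6 and 28.7 CPM with LYCAT shRNA. LYCAT replicate 3 was the lowest, and LYCAT replicate 2 lay just below the lowest control. SETD2 fell 1.24-fold (log2 -0.31, SE 0.112, edgeR adjusted p = 0.0392). The call was lost without control replicate 1 (adjusted p = 0.0929) or 3 (0.149) or LYCAT replicate 1 (0.0657) or 3 (0.363), and without LYCAT replicate 3 the log2 value was -0.18. It did not pass with DESeq2 (adjusted p = 0.186) or with offsets corrected for GC content and length (0.0716).

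The H3K4 group of 7 genes had 1 that fell, MLL (now KMT2A), the founding member of the family and a frequent fusion partner in leukaemia. MLL was at 107.7, 105.3 and 97.5 CPM in controls and 91.0, 91.1 and 87.6 CPM with LYCAT shRNA, without overlap. The fall was 1.15-fold (log2 -0.21, SE 0.0751, edgeR adjusted p = 0.041) and weakly held: the adjusted p was 0.147 without control replicate 1, 0.0668 without control replicate 2, and 0.1, 0.0841 and 0.156 without LYCAT replicates 1, 2 and 3, and of these 6 fits MLL passed only in that without control replicate 3. DESeq2 did not call it (adjusted p = 0.153). MLL2 (log2 -0.25, edgeR adjusted p = 0.11) and MLL4 (-0.20, adjusted p = 0.243) did not pass, though their groups did not overlap. Both names have been used for KMT2B and for KMT2D. The symbols alone do not say which is which, and they were left unresolved here. SETD1B, at 81.0, 93.4 and 81.3 CPM in controls and 76.2, 74.3 and 83.9 CPM with LYCAT shRNA, overlapped between the groups (log2 -0.13, adjusted p = 0.31). MLL5, MLL3 and SETD1A had log2 values of -0.12, -0.11 and 0.08. The 7 genes together went from 453.6 ± 20.2 to 412.2 ± 2.29 CPM (SD, n = 3 each), with every LYCAT library lower.

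EZH2, the catalytic subunit of the Polycomb complex PRC2, which trimethylates H3K27, was the closest to the threshold of the genes that were not called. It stood at 62.6, 67.7 and 69.3 CPM in controls and 55.8, 54.4 and 58.7 CPM with LYCAT shRNA, a difference of -0.24 on the log2 scale with no overlap (SE 0.0901, edgeR adjusted p = 0.0528). It passed as lower in 4 settings: without control replicate 1 (log2 -0.28, adjusted p = 0.0444) and, on all 6 libraries, with library totals only (0.0388), a minimum mean of 5 CPM (0.0466) and offsets for GC content and length (0.0338). EZH1, its less active paralog, had 27 to 52 counts in a library and overlapped between groups (log2 -0.30, adjusted p = 0.419). Of the 9 listed subunits and partners of PRC2, SUZ12, a core subunit, fell from 190.8 ± 8.50 to 155.3 ± 4.32 CPM (log2 -0.30, edgeR adjusted p = 0.000168), and PHF19, an accessory subunit, rose from 132.2 ± 0.773 to 154.6 ± 6.16 CPM (log2 0.23, adjusted p = 0.00747). The other 7 did not pass, and PHF19 did not pass without LYCAT replicate 3 (adjusted p = 0.0698).

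Of 9 histone deacetylases tested 3 fell and 0 rose (33.3% called, beside 19.1% of all tested genes), with a median of -0.19. No test of a difference between their classes was made; DESeq2 and limma-voom called 0 higher and 2 lower each, and 1 member, HDAC3, was higher at an unadjusted p under 0.05 in edgeR. The class IIb pair had the most negative log2 values. HDAC6, a mainly cytoplasmic deacetylase of tubulin and cortactin, was at 8.55, 8.89 and 4.91 CPM in controls (40, 44 and 20 counts) and 2.76, 3.86 and 3.96 CPM with LYCAT shRNA (13, 12 and 17 counts). Control replicate 3 was lower than the other controls and not far above the LYCAT libraries. HDAC6 fell 2.16-fold (log2 -1.11, SE 0.290, edgeR adjusted p = 0.00299), an imprecise value at these counts. It was just above the threshold without LYCAT replicate 1 (log2 -0.94, adjusted p = 0.051), and without control replicates 1 and 2, the libraries with more collagen RNA, its log2 value was -0.49 (adjusted p = 0.567).

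HDAC10, the other class IIb enzyme and a polyamine deacetylase, was at 5.56, 7.28 and 5.16 CPM in controls and 2.76, 2.90 and 4.43 CPM with LYCAT shRNA, from 26, 36 and 21 counts against 13, 9 and 19. It fell 1.78-fold (log2 -0.83, SE 0.305, edgeR adjusted p = 0.0438) with no overlap. The call was lost without control replicate 1 (adjusted p = 0.0639) or 2 (0.195) or LYCAT replicate 1 (0.201) or 2 (0.123), and without control replicates 1 and 2 (0.465). DESeq2 and limma-voom did not call it (adjusted p = 0.197 and 0.0524). The 2 class IIb genes together held 51.2% of their control level with LYCAT shRNA, from 13.5 ± 3.1 to 6.89 ± 1.44 CPM (SD, n = 3 each).

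HDAC4, a class IIa deacetylase that shuttles between nucleus and cytoplasm and represses MEF2 targets, was at 72.2, 68.9 and 62.9 CPM in controls and at 50.7, 48.9 and 49.9 CPM with LYCAT shRNA. The LYCAT libraries were nearly equal and all well below the controls. HDAC4 fell 1.37-fold, with means of 68.0 ± 4.73 and 49.8 ± 0.896 CPM (log2 -0.45, SE 0.0923, edgeR adjusted p = 0.000136), the smallest adjusted p among the enzymes, and it passed with any single library left out, though not without control replicates 1 and 2 (log2 -0.33, adjusted p = 0.0806). HDAC7 did not pass (log2 -0.19, adjusted p = 0.149). HDAC5 and HDAC9 had at most 9 counts in a library and were not tested.

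Of the class I deacetylases, HDAC1 and HDAC2 are catalytic subunits of the Sin3, NuRD and CoREST complexes and HDAC3 is that of NCoR, while HDAC8 is not known from these complexes. Of the 4 genes 0 passed with edgeR on all libraries, DESeq2 or limma-voom; HDAC1 was lower and HDAC3 higher at an unadjusted p under 0.05 in edgeR. HDAC1 was at 202.8, 217.3 and 218.7 CPM in controls and 193.5, 198.9 and 190.4 CPM with LYCAT shRNA (log2 -0.13, approximate 95% interval -0.25 to -0.02, edgeR adjusted p = 0.101), close to each other but without overlap. With offsets corrected for GC content and length HDAC1 was called lower (log2 -0.16, adjusted p = 0.034). HDAC2 was at 225.7, 185 and 221.6 CPM against 197.1, 206 and 213.5 CPM, with overlap (log2 -0.04, interval -0.16 to 0.09, adjusted p = 0.755). HDAC3 was at 81.2, 77.2 and 77.2 CPM in controls and 87.0, 94.9 and 87.9 CPM with LYCAT shRNA, without overlap, and did not pass (log2 0.19, adjusted p = 0.0845). HDAC8 and the class IV gene HDAC11 had log2 values of -0.32 and -0.12 and did not pass either.

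**Figure D2:**
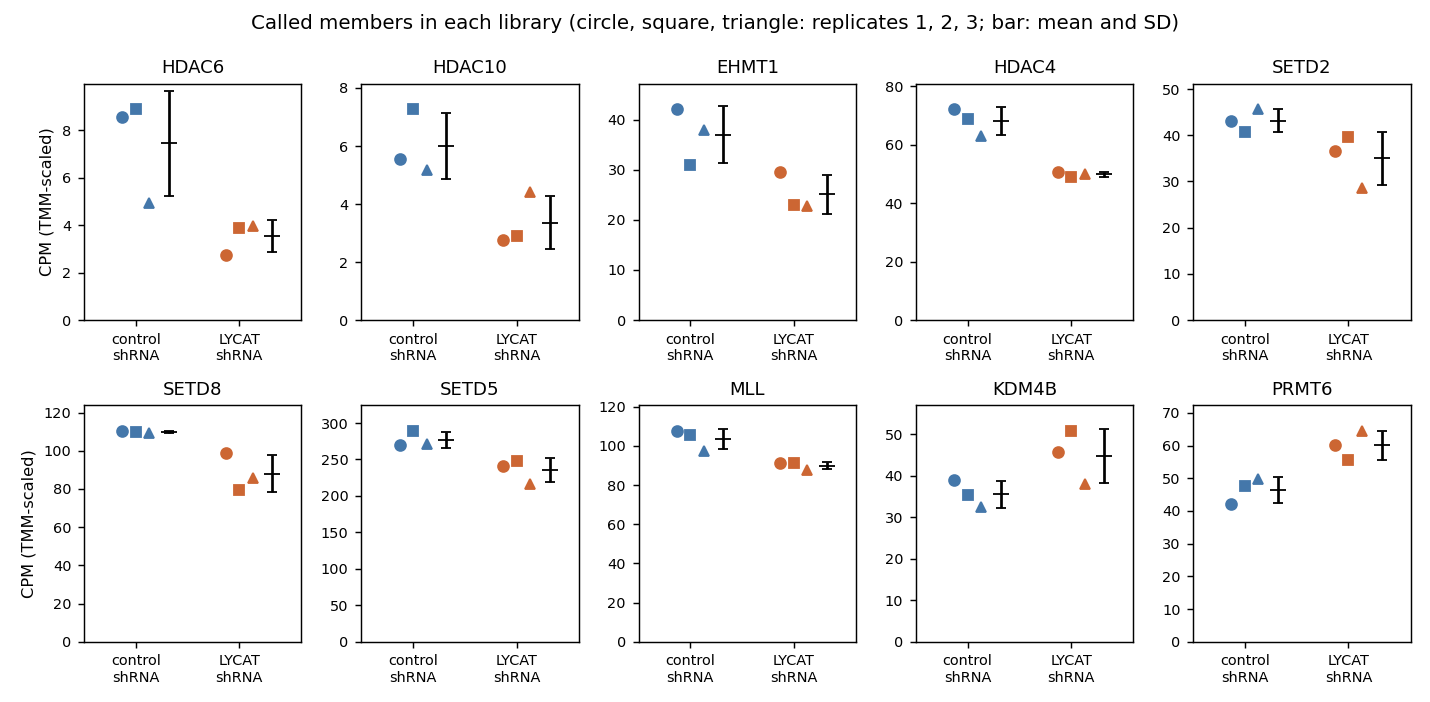
TMM-scaled CPM (vertical axes, from 0) of the 10 called enzymes in each library, control shRNA in blue and LYCAT shRNA in orange, with circles, squares and triangles for replicates 1, 2 and 3 and black bars for the mean and SD. The groups do not overlap for 9 of the 10; for KDM4B, LYCAT replicate 3 (38.0) lies below control replicate 1 (38.9), and for HDAC6 control replicate 3 (4.91) lies near the LYCAT libraries.

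Of 7 arginine methyltransferases tested 1 rose and 0 fell (14.3% called, beside 19.1% of all tested genes), and the median was 0.03. With edgeR 2 were lower at an unadjusted p under 0.05, and DESeq2 and limma-voom called 0 lower. PRMT6, the main enzyme for asymmetric dimethylation of H3R2, a mark that opposes H3K4 methylation, was at 42.1, 47.5 and 49.9 CPM in controls and 60.05, 55.7 and 64.6 CPM with LYCAT shRNA. All LYCAT libraries were above all controls. PRMT6 rose 1.30-fold, with means of 46.5 ± 3.99 and 60.1 ± 4.44 CPM (log2 0.38, SE 0.0971, edgeR adjusted p = 0.00251), and passed with any single library left out, though not without control replicates 1 and 2 (log2 0.28, adjusted p = 0.179). PRMT5, which makes symmetric dimethylarginine, was at 191.1, 189.2 and 193.6 CPM in controls and 203.1, 220.5 and 213 CPM with LYCAT shRNA, without overlap and not past the threshold (log2 0.15, adjusted p = 0.0713). WDR77 (MEP50), the obligate partner of PRMT5, rose from 73.1 ± 3.76 to 91.0 ± 4.88 CPM (log2 0.31, adjusted p = 0.00282). Of 4 PRMT partners, 2 rose, WDR77 and BTG1 (log2 0.21, edgeR adjusted p = 0.0106), and BTG1 missed the threshold when LYCAT replicate 1 (0.0541) or control replicate 3 (0.0752) was left out.

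PRMT1, which makes most of the asymmetric dimethylarginine of the cell, H4R3 included, was at 202.8, 255.7 and 232.2 CPM in controls and 200.3, 222.4 and 193.9 CPM with LYCAT shRNA, with overlap (log2 -0.17, SE 0.0655, edgeR adjusted p = 0.0589). It passed as lower without control replicate 1 (log2 -0.26, adjusted p = 0.0038) and without LYCAT replicate 2 (-0.22, 0.0323), and on all 6 libraries with library totals only (0.0371), no filter on low counts (0.0403) and offsets for GC content and length (0.0161). PRMT10, a symmetric methyltransferase now called PRMT9, did not pass (log2 -0.59, adjusted p = 0.0668) at 10.3, 9.5 and 8.35 CPM against 6.15, 5.47 and 6.99 CPM, without overlap. PRMT8, a gene of neurons, was at 0 in all libraries.

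Among lysine demethylases 1 of 15 rose and 0 fell, with a median of -0.13. That is 6.67% of the class called, beside 19.1% of all tested genes, and 80% of it lay below 0, beside 51% of all tested genes. In edgeR 5 were lower at an unadjusted p under 0.05, and DESeq2 and limma-voom called 0 in either direction. KDM4B, which demethylates trimethylated H3K9 and H3K36, was at 38.9, 35.4 and 32.4 CPM in controls and 45.6, 50.9 and 38.0 CPM with LYCAT shRNA. The groups overlapped, since LYCAT replicate 3 was just below control replicate 1. KDM4B rose 1.25-fold (log2 0.32, SE 0.111, edgeR adjusted p = 0.0341), but the call was lost when control replicate 2 (adjusted p = 0.0588) or 3 (0.145) or LYCAT replicate 1 (0.138) or 2 (0.202) was left out. DESeq2 and limma-voom did not call it (adjusted p = 0.149 and 0.0552). Its paralog KDM4A had the opposite sign, at 37.0, 40.6 and 39.1 CPM in controls and 30.8, 31.5 and 33.3 CPM with LYCAT shRNA, without overlap, and missed the threshold (log2 -0.29, adjusted p = 0.0598), which it passed with library totals only (0.0477). KDM4C had a log2 value of -0.13 and KDM4D, at 6 to 18 counts in a library, one of -0.61, and neither passed.

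KDM1A (LSD1), the amine oxidase that removes mono- and dimethyl marks from H3K4 within CoREST, was at 94.0, 73.6 and 88.9 CPM in controls and 80.4, 69.8 and 70.6 CPM with LYCAT shRNA. The groups overlapped because control replicate 2 was low, and without that library KDM1A passed as lower (log2 -0.31, edgeR adjusted p = 0.00414), beside -0.21 and 0.0817 with all libraries. KDM5A, a demethylase of trimethylated H3K4, was at 98.7, 108.8 and 96.1 CPM in controls and 100.4, 89.8 and 96.9 CPM with LYCAT shRNA (log2 -0.08, interval -0.23 to 0.07, adjusted p = 0.534). Its paralog KDM5B, at 78.1 to 85.1 CPM in controls and 69.4 to 73.4 CPM with LYCAT shRNA, did not overlap between the groups and did not pass (log2 -0.21, adjusted p = 0.0617). The H3K27 demethylase genes KDM6A and KDM6B had log2 values of 0.18 and -0.19 and did not pass. KDM4DL and KDM5D were under the filter on low counts.

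Of the sirtuins, deacylases that use NAD+, 0 of 6 tested passed with edgeR, DESeq2 or limma-voom, beside 19.1% of all tested genes called by edgeR. In edgeR 0 had an unadjusted p under 0.05, beside 3415 of all 11097 tested genes. With 6 genes, no difference from all tested genes can be read from these counts. SIRT1 and SIRT7 were the most abundant by counts. SIRT1, a nuclear deacetylase of histones and p53, was at 25.0, 20.6 and 24.1 CPM in controls and 20.4, 20.3 and 20.5 CPM with LYCAT shRNA (log2 -0.19, interval -0.47 to 0.10, edgeR adjusted p = 0.402). SIRT7, a nucleolar H3K18 deacetylase, was at 18.0, 26.3 and 15.7 CPM against 21.0, 20.3 and 20.7 CPM, with control replicate 2 highest (log2 0.04, interval -0.27 to 0.34, adjusted p = 0.91). The mitochondrial members SIRT3 and SIRT5 had log2 values of -0.13 and 0.05, and SIRT4, with 10, 11 and 10 counts in controls and 3, 2 and 10 with LYCAT shRNA, was not tested. SIRT6, a nuclear deacylase with 26 to 67 counts in a library, had a log2 value of -0.19 with an interval from -0.57 to 0.20.

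Of the 7 acetyltransferases 0 passed with edgeR, DESeq2 or limma-voom, beside 19.1% of all tested genes called by edgeR. In edgeR 0 had an unadjusted p under 0.05, beside 3415 of all 11097 tested genes. These 7 genes are too few to read a difference from all tested genes. Their log2 values ran from -0.16 for KAT8 to 0.003 for KAT5, with 6 of 7 below 0. KAT6A (MOZ), a MYST enzyme that acetylates H3K23, was at 91.3, 92.0 and 98.3 CPM in controls and 85.5, 84.3 and 92 CPM with LYCAT shRNA (log2 -0.10, interval -0.25 to 0.05, edgeR adjusted p = 0.403). KAT5 (TIP60), the enzyme of the NuA4 complex, was at 45.7, 46.7 and 52.3 CPM against 49.0, 51.8 and 44.5 CPM (interval -0.20 to 0.20, adjusted p = 0.991). The class summed to 278.6 ± 10.5 CPM in controls and 262.2 ± 1.36 CPM with LYCAT shRNA (SD, n = 3 each).

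**Figure D3:**
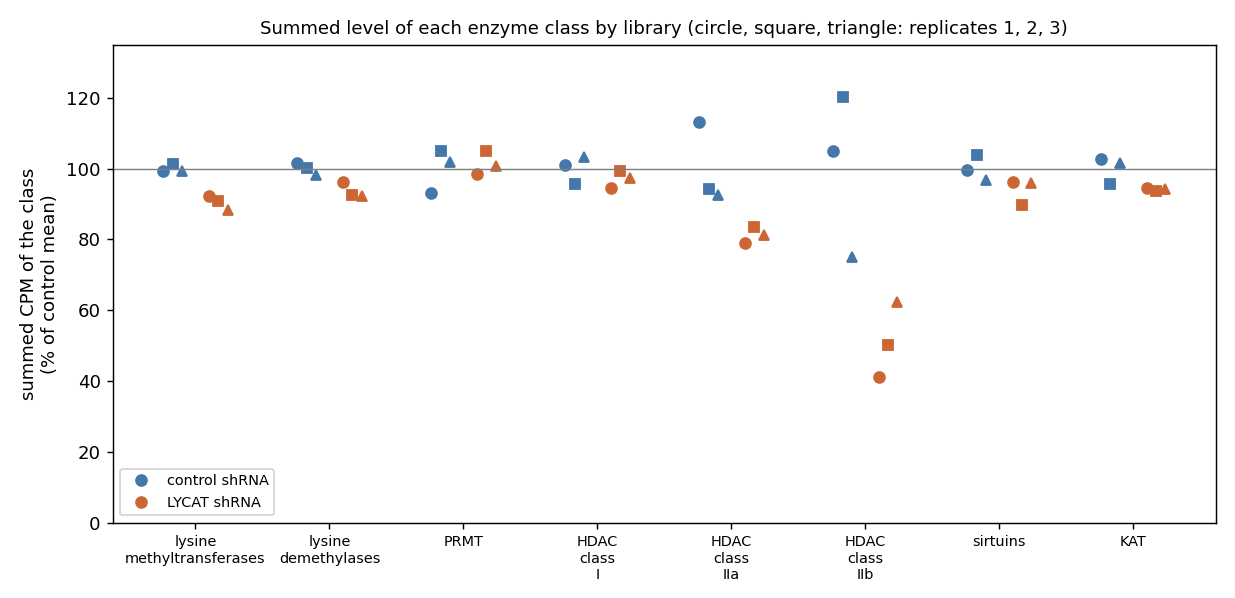
Summed TMM-scaled CPM of each enzyme class in each library, as a percentage of the mean of the 3 control libraries (vertical axis), with control shRNA in blue, LYCAT shRNA in orange and circles, squares and triangles for replicates 1, 2 and 3. HDAC class IIb is lowest with LYCAT shRNA at 51.2% of control, the methyltransferases stand at 90.5%, and PRMT (101.3%) and HDAC class I (97%) overlap between the groups.

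Per length of transcript, PRMT1 was the most abundant enzyme in control cells at 136.6 ± 15.7 CPM per kb, before HDAC1 at 100.3 ± 4.14 and PRMT5 at 75.6 ± 0.876 CPM per kb (SD, n = 3). SETD5 (40.6 ± 1.6) and HDAC3 (40.1 ± 1.19) came next and did not differ beyond their spread, followed by SETD8 (35.0 ± 0.186), KDM1A (28.0 ± 3.48) and EZH2 (25.2 ± 1.32), of which KDM1A and EZH2 overlapped in spread. With LYCAT shRNA the first 3 kept this order at 121.9 ± 8.87, 91.5 ± 2.03 and 83.8 ± 3.45 CPM per kb, and HDAC3 (45.9 ± 2.23) lay above SETD5 (34.5 ± 2.46). Lengths are those of the longest protein-coding transcript in GENCODE v29, which can overstate the length that was counted, so the order is approximate. HDAC2 and HDAC1 were at 210.8 and 212.9 CPM in controls, with lengths of 9874 and 2124 nt. HDAC2 thus came to only 21.3 ± 2.27 CPM per kb. MLL2 and MLL4 had no length and are left out of this order. HDAC6 at 1.78 and HDAC10 at 2.23 CPM per kb were among the low members in controls.

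Partners of these enzymes, listed by complex, were described in the same way. Of 11 COMPASS subunits and MLL partners 3 fell and 1 rose: PSIP1 (LEDGF), which tethers MLL to chromatin, from 282.5 ± 12.9 to 218.9 ± 14.6 CPM (log2 -0.36, edgeR adjusted p = 7.11e-07), ASH2L from 41.9 ± 3.57 to 30.2 ± 2.29 CPM (-0.47, 0.00134) and DPY30 (-0.25, 0.0121), while WDR82 of the SETD1 complexes rose (0.18, 0.0136). DPY30 did not pass without control replicate 3 or LYCAT replicate 1 (adjusted p = 0.0573 and 0.241). WDR82 lost its call without control replicate 1 or 3 or LYCAT replicate 1 or 3, where 0 COMPASS subunits were called higher. Of 24 HDAC complex subunits 3 fell and 0 rose: the NuRD subunits CHD3, from 122.0 ± 4.96 to 87.9 ± 3.28 CPM (log2 -0.47, adjusted p = 5.33e-07), and GATAD2B (-0.31, 0.000252), and SAP130 of Sin3 (-0.35, 0.0174). DESeq2 and limma-voom called 0 of these higher and 2 and 3 lower, and 1 was higher at an unadjusted p under 0.05 in edgeR. SAP130 lost its call when control replicate 1 or 3 or LYCAT replicate 1 or 3 was left out (adjusted p = 0.0526 to 0.109). Without control replicate 2, 5 HDAC complex subunits were called lower and 1 higher. CHD3, GATAD2B, ASH2L, PSIP1 and SUZ12 were called in every setting tried.

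Of 33 KAT complex subunits 1 fell, PHF17 (JADE1; log2 -0.39, edgeR adjusted p = 0.000176), and 0 rose; in edgeR 1 was higher and 6 were lower at an unadjusted p under 0.05, DESeq2 and limma-voom called 1 lower and 0 higher each, and without control replicate 2 edgeR called 3 lower. Of 8 partners of H3K9 methylation 1 fell, CBX5 (HP1 alpha), a reader of that mark, from 94.3 ± 4.94 to 73.8 ± 4.66 CPM (log2 -0.35, adjusted p = 0.000588). Of 24 writers outside the symbol series 3 fell and 1 rose, namely TAF1, from 62.6 ± 7.58 to 45.9 ± 6.26 CPM (log2 -0.46, adjusted p = 0.000435), NCOA3 (-0.26, 0.0341) and the H3K36 methyltransferase NSD1 (-0.27, 0.0405), while SMYD2 rose (0.22, 0.0343). NCOA3 lost its call when control replicate 1 or LYCAT replicate 1 or 3 was left out (adjusted p = 0.1 to 0.291), and SMYD2 passed with 1 library left out only without control replicate 3. NSD1 lost its call without control replicate 1 or LYCAT replicate 1, and with offsets corrected for GC content and length. In these fits TAF1 was the only listed writer called lower. NSD1 also lost its call without control replicate 3 or LYCAT replicate 2, and with no filter on low counts. There the 2 listed writers called lower were TAF1 and NCOA3. Of 8 erasers outside the series 0 passed with edgeR, DESeq2 or limma-voom, and 1 was higher and 1 lower at an unadjusted p under 0.05 in edgeR. DESeq2 did not call NCOA3, NSD1, SMYD2, DPY30, WDR82, SAP130 or BTG1. Without control replicates 1 and 2, NCOA3, NSD1, SMYD2, DPY30, SAP130, PHF17, CBX5, WDR77 and PHF19 did not pass. The counts for these lists stand beside 19.1% of all tested genes called.

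The tested enzymes have longer transcripts than tested genes in general (median 4272 nt beside 3453 nt), and across all tested genes with a length the log2 fold change had a Spearman rho of -0.10 with transcript length, a description over genes that share the same libraries. With offsets corrected for GC content and length in each library, the median of the enzymes was -0.10, 49 of 67 lay below 0, 9 fell and 2 rose, with 19.1% of all genes called. These were not the same genes: MLL (adjusted p = 0.165) and SETD2 (0.0716) lost their calls, and HDAC1 (0.034), EZH2 (0.0338) and PRMT1 (0.0161) were called lower. TOP2A, a marker of dividing cells, fell (log2 -0.20, edgeR adjusted p = 0.000223) and MKI67 did not pass (-0.07, adjusted p = 0.382). Of the stress-responsive genes listed with them, JUN rose from 42.1 ± 1.66 to 62.6 ± 9.65 CPM (log2 0.58, edgeR adjusted p = 5.72e-06) without overlap, and FOS did not pass (0.12, adjusted p = 0.838). The part of cell division or stress in the enzyme results was not tested.

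**Figure D4:**
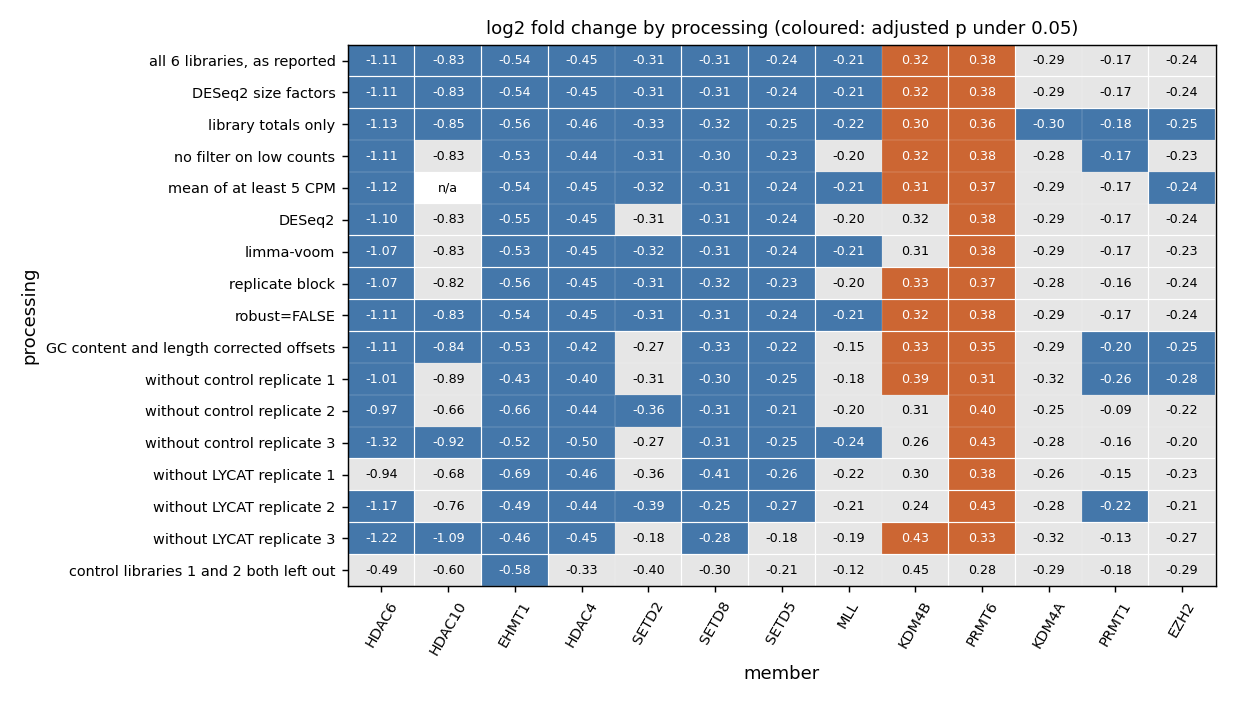
Log2 fold change (LYCAT over control shRNA) printed for the 10 called enzymes and the 3 nearest to the threshold (columns) under each way of processing (rows), coloured where the adjusted p was under 0.05, blue for lower and orange for higher, and grey otherwise. EHMT1 is coloured in all rows, HDAC4, SETD8 and PRMT6 in all but the last, and MLL, HDAC10, KDM4B and SETD2 in fewer.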

How the data were processed

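RNA of H2122 cells was sequenced in 3 control shRNA and 3 LYCAT shRNA libraries, and the authors deposited 1 table of raw counts per gene. The tools bcl2fastq 2.17, featureCounts 1.5.1, Bowtie2 and BWA 0.7.15 and the builds mm10 and hg19 are listed per the submitters' processing notes. Their roles and any use of strand are not given in the sources used here, so overlapping genes cannot be told apart. The LYCAT columns are headed "cycat", taken as a slip for LYCAT, and were assigned by that heading. Library totals were 3118946 to 4930079, and 3 counts correspond to 0.606 to 0.966 CPM.

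Genes passing filterByExpr (11097) were scaled with TMM (factors 0.993 to 1.01) and tested with edgeR 4.0.16 (R 4.3.3; glmQLFit with robust=TRUE, group as the only term), with Benjamini-Hochberg adjustment over all of them. SE is the log2 fold change divided by the root of F, and intervals are 95%. Chi-square divided by its degrees of freedom was 1.36 to 2.49 for pairs within a group and 4.93 to 6.72 across groups, so no library was a duplicate. DESeq2 1.42.0, limma-voom (limma 3.58.1) and other alternatives are in the closing section. All fits were tested on simulated data.

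The members, classes and partner lists were chosen with earlier results of these data known. Named were LCLAT1, all called members, the 2 most abundant members not called per class, the 3 nearest to the threshold and up to 3 called genes per partner list. All others, among them HDAC3, EHMT2, SUV39H1, PRMT10, KDM5B, MLL2, MLL4, WDR82, NSD1 and the sequences shown, were picked after their values were seen. Promoter sequences are RefSeq's (GRCh38.p14). All 10 called genes matched that table.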

Additional observations from a re-analysis of the deposited data

How the results depend on the processing

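Over the alternatives planned (DESeq2's size factors, library totals, all genes unfiltered, a minimum mean of 5 CPM, DESeq2, limma-voom, a replicate block, robust=FALSE, offsets for GC content and length, each library left out, and control replicates 1 and 2 left out together), 2 enzymes higher and 8 lower became 1 and 5 with DESeq2, 1 and 7 with limma-voom, and 0 and 1 without control replicates 1 and 2, while the share of all genes called went from 19.1% to 10.8%, 17.9% and 9.94%. With each library left out in turn 1 to 2 were higher and 4 to 9 lower, with 12.9% to 19.9% of all genes called (12.9% without LYCAT replicate 1 or 3). With library totals only, 12 were lower and 2 higher. The causes were not tested, except that fewer libraries enter the last 2 kinds of fit. With the replicate block, 2 were higher and 6 lower, with MLL and HDAC10 lost (adjusted p = 0.0515 and 0.061). Libraries that share a number did not deviate together (correlations of 0.00509, -0.0645 and -0.0477). These values showed no pairing by number, but 3 libraries per group cannot settle whether any were prepared together. The highest correlations were those of control replicate 3 with LYCAT replicate 2 (0.115), 2 with 1 (0.0834) and 1 with 3 (0.0585). The median of the enzymes lay between -0.13 and -0.10 in all 16 alternatives, and 72.9% to 78.6% of them lay below 0. Values near 0 changed sign for KAT5 (-0.0111 with library totals, -0.00093 with the 5 CPM minimum, -0.0166 with GC content and length, -0.0369 to 0.0651 with single libraries left out, -0.12 without both controls), HDAC2 (0.0408 with GC content and length, -0.12 to 0.0208 with single libraries left out), SIRT7 (-0.0957 to 0.292 with single libraries left out) and KDM5A (0.00307 without both controls); none of these passed in any of them. HDAC10 has no value under the 5 CPM minimum. Depth limits the less abundant members such as HDAC6 and HDAC10, which had 9 to 44 counts in a library.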
